A study of Mus musculus with 4 samples.

Results

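The syndecans Sdc1, Sdc2, Sdc3 and Sdc4, the glypicans Gpc1, Gpc3, Gpc4 and Gpc6, and versican, Vcan, were followed in mammary tumors of mice labelled St6gal1-/- or wild type. All probe sets whose annotated gene symbol was exactly one of these 9 names were taken, which gave 30 of the 45037 probe sets on the array that were not controls, and 9 of 18193 named genes. Each of the 4 arrays (Affymetrix Mouse Genome 430 2.0, read in 1 colour) held RNA of 1 pool of 3 mammary tumors from 3 female C57BL/6 mice, aged 110 days and 14 days after tumor onset, and every mouse carried PyV-mT, the polyoma virus middle T oncogene. In 2 pools the mice were St6gal1-/- (null), and in the other 2 they were wild-type littermates; the design compared 1 null with 1 wild-type pool in each of 2 sets. St6gal1 encodes the enzyme that adds alpha2-6-linked sialic acid to N-glycans. The labels name neither the promoter that drives middle T nor the stretch of St6gal1 missing from the null allele.

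Syndecans and glypicans are the main heparan sulfate proteoglycans of the cell surface. Syndecans span the membrane and carry heparan sulfate, in part with chondroitin sulfate, on an ectodomain that proteases can shed, while glypicans are held by a lipid anchor. The heparan sulfate chains bind growth factors, morphogens and matrix proteins, and act with integrins in adhesion. Versican is a large secreted chondroitin sulfate proteoglycan that binds hyaluronan in the stroma.

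A probe set combines several short probes against 1 stretch of transcript into 1 signal, and its intensity has no unit and cannot be set against that of another probe set. Intensities were used on the scale log2(value + 44) and tested with limma, with the set as a block, over the 22519 probe sets whose mean was at or above the median of 591. Of the 30 probe sets, 24 passed this filter, covering all 9 genes. The other 6, 1 of Sdc2 and 5 of Vcan, read at most 452 on any array. That is within the unspecific level of 565, the highest signal of 13 Y-linked probe sets in these female mice. A fold or a log2 ratio is null over wild type. The value after ± is the SE of limma, with n = 2 pools per genotype. It draws mostly on other probe sets of like intensity, with 13 prior and 1 residual degrees of freedom. It is therefore not the spread of the 2 sets, whose ratios can lie further apart.

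The 4 arrays had median intensities from 588 to 619. The Gapdh 3'/5' ratio, a measure of RNA integrity, was 0.873 for null against 0.869 for wild type in set 1, and 2.13 for null against 1.57 for wild type in set 2. The same ratio for actin was 1.53 for null against 1.63 for wild type in set 1, and 2.12 for null against 1.96 for wild type in set 2. The St6gal1 probe set above the filter read 2337 and 3642 on the null arrays, against 2330 and 2796 on the wild-type arrays, so it showed no loss in the pools labelled null, and all directions rest on the labels. Luminal epithelial markers were present in all pools: 0 of 12 stayed at or below 565 on all arrays.

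Of the 24 tested probe sets, 5 passed an adjusted p of 0.05, all of them lower in the null pools, 1 each of Sdc2, Gpc1, Sdc4, Gpc6 and Sdc1. Over all probe sets tested, 7.3% passed, 3.25% as lower and 4.05% as higher. The median log2 ratio of the 24 was -0.22, beside -0.03 for all probe sets tested. In both sets 15 of the 24 were lower and 2 were higher, where 34.9% and 28.4% of all tested probe sets did so. The other 7 went in opposite directions in the sets, as did 36.7% of all tested probe sets. Probe sets of 1 gene are read from the same RNA and are not independent of each other. In whole tumor RNA fewer cells of a type and less RNA per cell cannot be told apart.

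**Figure D1:**
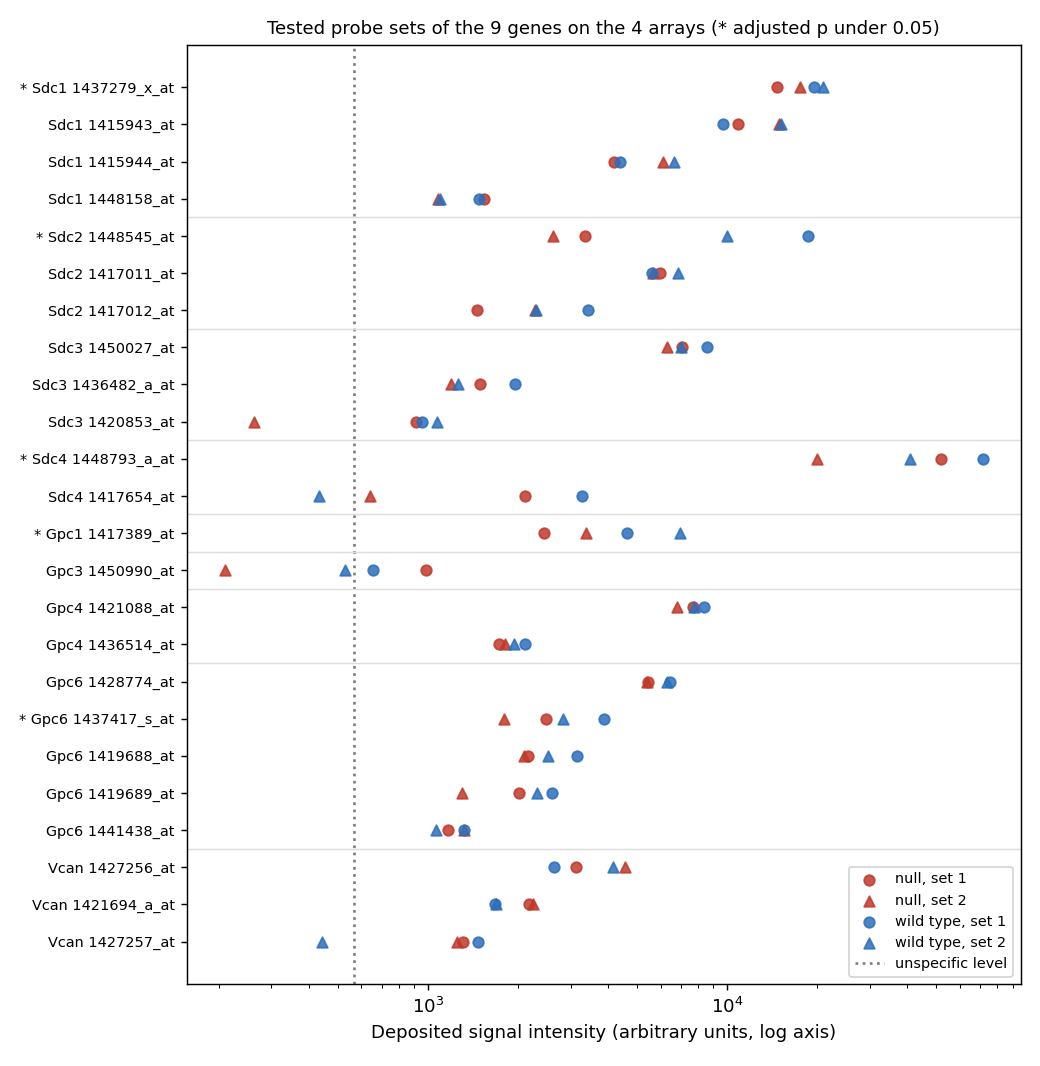
Signal intensity (log axis, arbitrary units) of the 24 tested probe sets on each array, null in red and wild type in blue, set 1 as circles and set 2 as triangles, with the unspecific level of 565 dotted and an asterisk on the 5 that passed. The null points of Sdc2 1448545_at and Gpc1 1417389_at lie left of both wild-type points, whereas for Sdc4 1448793_a_at the null point of set 1 lies between the wild-type points.

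Promoter sequences of 6 of the 9 genes were matched in RefSeq (GRCm38.p6), each running from 250 bases before to 50 after the annotated start. Those of Sdc1 and Sdc4, which each had 1 probe set that passed the test as lower in the null pools, and of Vcan, which had none that passed, are shown 5' to 3' on the strand of the gene. Capitals mark the GC box GGGCGG, searched on both strands, so that CCGCCC is its reverse.
Sdc1, chr12:8771146-8771445, + strand: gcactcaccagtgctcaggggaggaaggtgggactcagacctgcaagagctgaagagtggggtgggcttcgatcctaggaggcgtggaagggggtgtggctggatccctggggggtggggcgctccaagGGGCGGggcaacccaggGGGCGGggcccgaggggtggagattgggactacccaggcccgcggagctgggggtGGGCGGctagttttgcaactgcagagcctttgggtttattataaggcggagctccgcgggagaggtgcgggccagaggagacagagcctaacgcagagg
Sdc4, chr2:164443139-164443438, - strand: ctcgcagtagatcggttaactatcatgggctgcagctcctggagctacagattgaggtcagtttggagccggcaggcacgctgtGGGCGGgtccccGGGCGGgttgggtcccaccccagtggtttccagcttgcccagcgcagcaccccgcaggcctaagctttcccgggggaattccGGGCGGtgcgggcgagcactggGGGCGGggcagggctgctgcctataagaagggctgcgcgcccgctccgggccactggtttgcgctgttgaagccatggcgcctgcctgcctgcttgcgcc
Vcan, chr13:89742463-89742762, - strand: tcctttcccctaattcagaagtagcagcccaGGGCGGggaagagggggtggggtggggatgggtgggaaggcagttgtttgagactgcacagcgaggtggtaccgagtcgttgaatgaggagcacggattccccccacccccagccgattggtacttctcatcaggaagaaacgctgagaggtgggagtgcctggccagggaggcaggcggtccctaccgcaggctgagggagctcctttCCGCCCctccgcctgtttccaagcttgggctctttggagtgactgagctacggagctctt
Sdc2, Gpc1 and Gpc6, which each had 1 probe set that passed, had no matched promoter. The GC box occurs 3 times in the Sdc1, 4 times in the Sdc4 and 2 times in the Vcan promoter. In the promoters not shown, of genes with no probe set that passed, it occurs 4 times for Gpc3, 3 times for Sdc3 and 1 time for Gpc4. All 6 matched promoters hold at least 1, as do 35.7% of the 32851 promoters in the table. The TATA box letters TATAAA, which cannot overlap a GC box, were searched on both strands as well and were in 0 of the 6, against 13.6% of all promoters. The GC content was 66.3% for Sdc1, 67.7% for Sdc4 and 61.0% for Vcan, against a median of 52.7%.

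Sdc2, a syndecan known from fibroblasts and other mesenchymal cells, had the lowest ratio of the 24 probe sets, and its probe sets disagreed. Probe set 1448545_at read 3354 and 2628 on the null arrays of sets 1 and 2, against 18699.9 and 9964 on the wild-type arrays. Both null arrays lay below both wild-type arrays, and every signal was above the unspecific level. It fell by 2.18 ± 0.13 on the log2 scale (limma adjusted p = 1.31e-07), which is 0.22 of wild type. The within-set ratio was 0.181 in set 1 and 0.267 in set 2.

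The other Sdc2 probe sets did not pass. Probe set 1417011_at read 5953 and 5653 on the null arrays, against 5606 and 6852 on the wild-type arrays, and its log2 ratio was -0.09 ± 0.12 (limma adjusted p = 0.716). Its null arrays lay within the range of the wild-type arrays, and the direction was opposite in the 2 sets. Probe set 1417012_at read 1464 and 2287 on the null arrays, against 3428 and 2304 on the wild-type arrays, with a log2 ratio of -0.61 ± 0.23 (limma adjusted p = 0.139). Nearly all of that difference came from set 1, where the log2 ratio was -1.20, while in set 2 it was -0.01. The fourth, 1431474_at, read between 113 and 290.3 on all arrays and was not tested.

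Within each set 1448545_at stood apart from both of the other tested probe sets. Its log2 ratio lay 2.55 below that of 1417011_at in set 1 and 1.63 below it in set 2. Against 1417012_at it lay 1.26 below in set 1 and 1.89 below in set 2. The distance of 2.09 between the lowest and highest mean log2 ratio of Sdc2 compares with a median distance of 0.26 over the 5037 genes with at least 2 tested probe sets. Sdc2 is 1 of 4 genes at that distance or beyond. Among the 1216 genes with 3 tested probe sets, where the median is 0.32, it is the only one. Sdc2 was singled out for this disagreement with its values known, so these ranks describe it and test nothing. The annotation does not place these probe sets along the transcript, so the values hold for each probe set and not for Sdc2 as a whole.

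**Figure D2:**
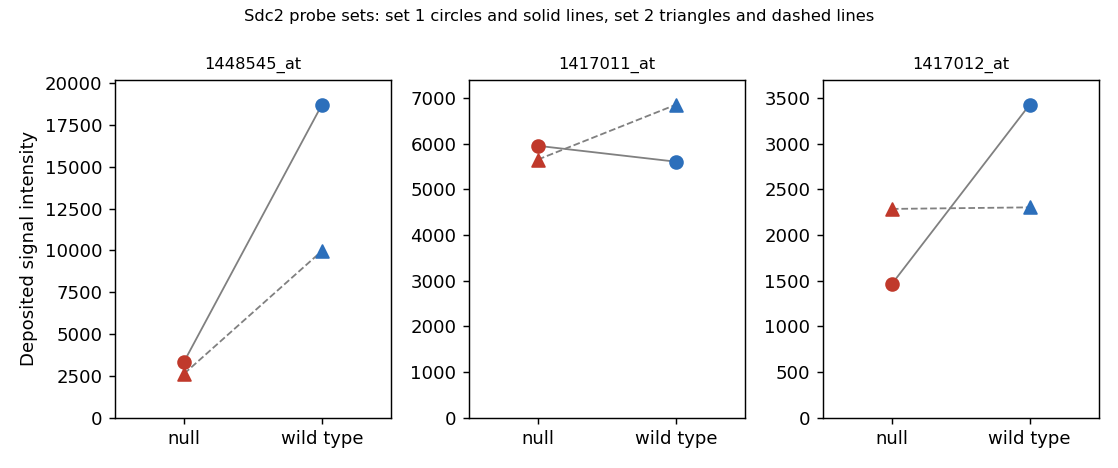
Signal intensity (arbitrary units, axis from 0 in each panel) of the 3 tested Sdc2 probe sets, null left and wild type right, with a line joining the 2 pools of a set (set 1 circles and solid, set 2 triangles and dashed). For 1448545_at both null points, 3354 and 2628, sit far below both wild-type points, 18699.9 and 9964, while for 1417011_at the null points lie between the wild-type points.

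Sdc1, the main syndecan of simple epithelia and of plasma cells, passed the test on 1 of its 4 probe sets, 1437279_x_at, which read 14673 and 17530.2 on the null arrays against 19490 and 20886 on the wild-type arrays, without overlap. It fell by 0.33 ± 0.09 on the log2 scale (limma adjusted p = 0.0329), or to 0.795 of wild type. Affymetrix gives the suffix _x to probe sets with probes that can also match other transcripts. With all probe sets tested, dim ones included, this call was lost (adjusted p = 0.0569).

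The other 3 Sdc1 probe sets had log2 ratios of -0.10, 0.02 and 0.07, with limma adjusted p from 0.698 to 0.98. Probe set 1415943_at read 10837 and 14898 on the null arrays, against 9657 and 15129 on the wild-type arrays. Its set 2 pools were the brighter ones in both genotypes, 1.37-fold in null and 1.56-fold in wild type, a wider gap than that between genotypes. Of the 3 B and plasma cell markers tested, Jchain, the joining chain of IgA and IgM, fell by 0.82 on the log2 scale. Ighm, the IgM heavy chain, rose by 0.59, and Xbp1 had -0.01 without passing. The other tested probe sets of Ighm had 1.14, 0.57 and 0.01, the last without passing. The part of these markers in the Sdc1 values was not tested.

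Sdc4, the ubiquitous syndecan of focal adhesions that binds protein kinase C alpha, was lower within both sets on its brighter probe set. Probe set 1448793_a_at read 51858 and 19912 on the null arrays against 71448 and 40829 on the wild-type arrays. The genotypes overlapped across sets, since both pools of set 2 read lower than those of set 1, at 0.384 of set 1 in null and 0.572 in wild type. Within sets the ratio was 0.726 and 0.488, and the fit gave a fall of 0.75 ± 0.11 (limma adjusted p = 7.34e-04). The call needs the comparison within sets: with the null array of set 2 left out and no set term, the log2 ratio was -0.06. The Gapdh 3'/5' ratio was higher in both pools of set 2 as well, and more so in null (2.13) than in wild type (1.57). The actin ratio was higher in set 2 too, at 2.12 in null and 1.96 in wild type. The part of these ratios in the set 2 value was not tested.

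The second Sdc4 probe set, 1417654_at, did not follow. It read 2106 and 639 on the null arrays, against 3272 and 432 on the wild-type arrays, and its log2 ratio was -0.63 in set 1 and 0.52 in set 2. The wild-type signal of set 2 lay within the unspecific level. Both probe sets of Sdc4 read dimmer in set 2 in both genotypes, and they gave a like direction for genotype in set 1 only.

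Sdc3, known best from the nervous system, had no probe set that passed. Probe set 1450027_at read 7047 and 6309.8 on the null arrays, against 8579 and 6989.5 on the wild-type arrays, with a log2 ratio of -0.21 ± 0.10 (limma adjusted p = 0.253). Probe set 1436482_a_at had -0.23 ± 0.22 (limma adjusted p = 0.608). Both were lower in null within each set, yet the genotypes overlapped. Probe set 1420853_at had -0.97 ± 0.40 (limma adjusted p = 0.184), a value that came from 1 array: the null pool of set 2 read 263, within the unspecific level, while the other 3 arrays read from 910.4 to 1074.

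Gpc1, the glypican that acts as a co-receptor for fibroblast growth factors and is known from epithelial and stromal cells of several carcinomas, was lower in both sets. Its only probe set, 1417389_at, read 2437 and 3375 on the null arrays against 4640.1 and 6945 on the wild-type arrays. The groups did not overlap, although in both genotypes the set 2 pool was the brighter. It fell by 0.97 ± 0.12 on the log2 scale (limma adjusted p = 1.70e-04), or to 0.509 of wild type, with ratios of 0.53 and 0.489 in the 2 sets.

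Gpc6, known from human omodysplasia as a glypican needed for limb growth, had ratios below 1 in both sets on 4 of 5 probe sets, of which 1 passed. Probe set 1437417_s_at read 2483 and 1796 on the null arrays against 3885 and 2833 on the wild-type arrays. It fell by 0.64 ± 0.15 on the log2 scale (limma adjusted p = 0.0182), and the log2 ratio was -0.64 in each set. Affymetrix gives the suffix _s to probe sets whose probes are shared by more than 1 transcript.

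A further 3 probe sets of Gpc6 went the same way without passing. They were 1419689_at at -0.59 ± 0.19 (limma adjusted p = 0.0763), 1419688_at at -0.40 ± 0.16 (0.171) and 1428774_at at -0.23 ± 0.11 (0.241). Each had both null arrays below both wild-type arrays. The fifth, 1441438_at, read 1167 and 1317 on the null arrays, against 1323 and 1068 on the wild-type arrays, with a log2 ratio of 0.06 ± 0.24. Of all 24 tested member probe sets, 11 had both null arrays below both wild-type arrays, as did 16.9% of all probe sets tested.

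Gpc4, an X-linked glypican that modulates Wnt signalling, had no probe set that passed. Its 2 probe sets had log2 ratios of -0.15 ± 0.10 and -0.19 ± 0.18 (limma adjusted p = 0.432 and 0.613). Probe set 1421088_at read 7683 and 6807 on the null arrays, against 8340.4 and 7757 on the wild-type arrays, with ratios of 0.922 in set 1 and 0.878 in set 2. Of the members with several tested probe sets, Gpc4 had the ones closest together, 0.04 apart.

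Gpc3, the X-linked neighbour of Gpc4 that restrains hedgehog signalling and body growth, had 1 probe set, which did not pass. Probe set 1450990_at read 985 and 209.99 on the null arrays, against 657 and 528 on the wild-type arrays. The null array was the brighter in set 1 and the dimmer in set 2, and both pools of set 2 lay within the unspecific level. The log2 ratio was -0.31 ± 0.45 (limma adjusted p = 0.769).

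Vcan had no probe set that passed, and its 3 tested probe sets all had a mean log2 ratio above 0. Probe set 1421694_a_at read 2183 and 2241 on the null arrays against 1679 and 1695 on the wild-type arrays, without overlap. The log2 ratio was 0.38 ± 0.18 (limma adjusted p = 0.247), and 0.37 and 0.39 in the 2 sets. Non-overlap in that direction was seen for 15.1% of all probe sets tested.

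Probe set 1427256_at of Vcan read 3130.3 and 4560.4 on the null arrays, against 2629.8 and 4153 on the wild-type arrays, with a log2 ratio of 0.19 ± 0.13 (limma adjusted p = 0.467). Here the sets differed more than the genotypes, by 1.45-fold in null and 1.57-fold in wild type. For 1427257_at the log2 ratio of 0.62 ± 0.34 (limma adjusted p = 0.327) came from the wild-type array of set 2, which read 444, within the unspecific level, while the other 3 arrays read from 1252 to 1472.

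**Figure D3:**
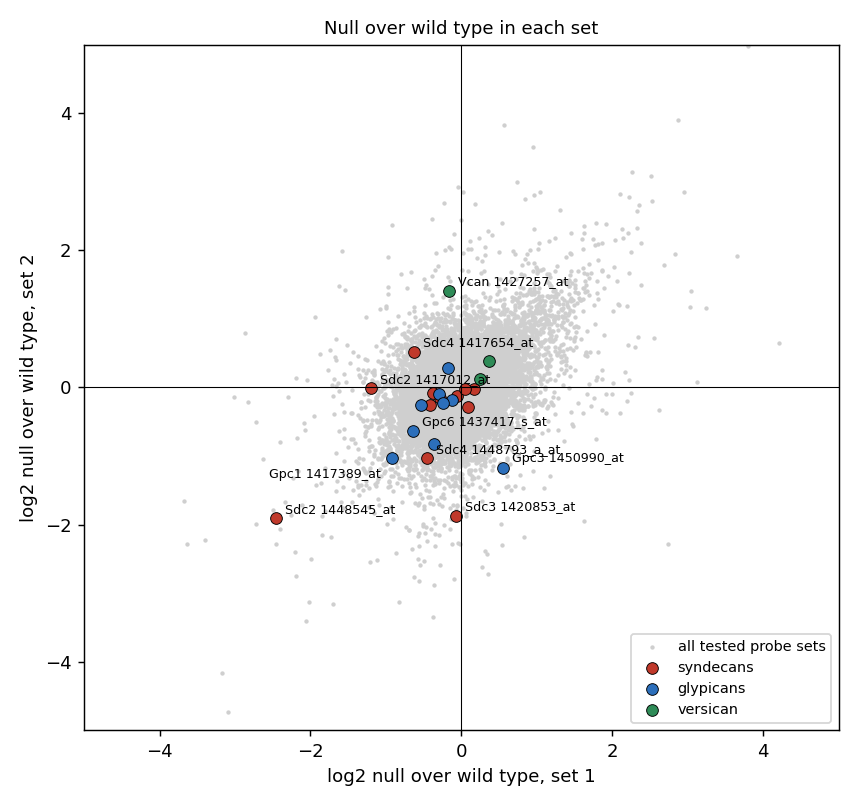
The log2 ratio of null over wild type in set 1 (x axis) against set 2 (y axis) for the 24 tested probe sets, syndecans in red, glypicans in blue and versican in green, over all 22519 tested probe sets in grey. Sdc2 1448545_at sits far to the lower left at -2.46 and -1.91, Gpc1 at -0.92 and -1.03, while Gpc3 at 0.55 and -1.17 and Sdc4 1417654_at at -0.63 and 0.52 have opposite signs in the sets.

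All 5 calls rest on the comparison within sets and on the intensity trend that limma fits to the spread. Without the set term 0 of the 24 probe sets passed (2 at an unadjusted p under 0.05), and Sdc2 1448545_at had an adjusted p of 0.184. Without the intensity trend 0 passed as well (7 at an unadjusted p under 0.05), with adjusted p from 0.138 for Sdc2 to 0.352 for Sdc1.

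Markers of other cells differed between the same pools. The marker lists were chosen with earlier results of these data known, so their counts describe them and test nothing. Over all probe sets tested, 4.05% passed as higher and 3.25% as lower. All 12 fibroblast markers tested rose in null, with a median log2 ratio of 1.11, and their summed signal was 418014 and 475342 on the null arrays against 199009 and 218079 on the wild-type arrays. Of 11 basal epithelial markers 6 fell and 0 rose, with a median of -0.53 and summed signals of 119717 and 139966 in null against 156592 and 172663 in wild type. Such sums lean on the brightest probe sets. On the null array of set 1, Col3a1 gave 129804 of the fibroblast sum. Acta2, which did not pass, gave 72917 of the basal sum there. No marker of these lists was at or below the unspecific level on all arrays. Their part in the values of the proteoglycans was not tested. Among the luminal markers 3 of 12 rose and 0 fell (median 0.22), and of 10 macrophage markers 3 rose and 1 fell (median 0.12). Of the adipocyte markers 5 of 6 rose (median 1.36), as did 3 of 8 of skeletal muscle (0.92) and 4 of 9 of endothelium and pericytes (0.76), with 0 falling in each. Of the 3 muscle markers, Ckm read 219.6 and 478 on the wild-type arrays, and Tnni2 read 236 on that of set 2. These lay within the unspecific level, while Tnnc2 lay above it on all arrays. The second tested Tnni2 probe set had -0.01 without passing. The adipocyte sum was 78297 and 75470 in null against 32135 and 30174 in wild type. Of 3 T and NK cell markers 0 passed, with a median of 0.64 (0.15 in set 1 and 1.12 in set 2). Cd8a read 499 on the wild-type array of set 2 and Gzmb 562 on the null array of set 1, within the unspecific level. Of 3 B and plasma cell markers 1 rose and 1 fell (median -0.01). Lep, Cd79a, Ms4a1, Tnfrsf17, Cd2 and Cd4 of these lists lay within the unspecific level on all arrays.

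For the counts of this and the following lists, 4.05% of all probe sets tested passed as higher and 3.25% as lower. Among the enzymes that build heparan sulfate, 0 of 14 tested rose and 1 fell, with a median log2 ratio of -0.18. It was Hs3st3b1, which adds a rare sulfate at the third hydroxyl of glucosamine. Its probe set 1433977_at read 1987 and 2348 on the null arrays against 5207 and 5112 on the wild-type arrays. It fell by 1.24 ± 0.14 on the log2 scale (limma adjusted p = 5.21e-05), while its second tested probe set had -0.47 (adjusted p = 0.285). Ext1 and Ext2, whose complex polymerises the chain, had -0.17 and -0.21 without passing (adjusted p = 0.399 and 0.262). In both sets 8 of the 14 were lower, beside 34.9% of all probe sets tested. Of 8 enzymes that make the linker between core protein and chain, 0 passed (median 0.00).

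Genes that release or edit these proteoglycans went both ways. Of 9 tested, Mmp14, a membrane metalloprotease that can shed syndecans, rose by 0.47 ± 0.09 on the log2 scale (limma adjusted p = 0.00437). Timp3, an inhibitor that blocks such shedding, fell by 0.53 ± 0.08 (limma adjusted p = 0.00109). Timp3 read 17822 and 16454 on the null arrays against 25477 and 24018 on the wild-type arrays, and Mmp14 read 14886 and 15621 against 10367 and 11689. Neither overlapped between genotypes. Over all probe sets tested, 16.9% had both null arrays below both wild-type arrays and 15.1% had both above. The other tested probe sets of Mmp14 had 0.38 and 0.65 without passing, and of the others of Timp3 1 passed, at -0.68. The list had a median of -0.05.

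On the side of versican, the genes that make chondroitin sulfate had 1 of 11 that rose and 1 that fell, with a median of -0.05. Both start chain growth: Csgalnact1 rose by 0.95 ± 0.17 (limma adjusted p = 0.00353) and Csgalnact2 fell by 0.44 ± 0.11 (limma adjusted p = 0.019). Of 5 proteases that cut versican, Adamts5 rose by 1.19 ± 0.22 on the log2 scale (limma adjusted p = 0.00393). It read 2063 and 2053 on the null arrays against 820.4 and 935 on the wild-type arrays, and its second probe set also rose, by 1.03. Adamts4 had 1.07 ± 0.34 without passing (limma adjusted p = 0.0768), and its wild-type signals of 433 and 455 lay within the unspecific level.

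Of 10 genes of hyaluronan and its binding proteins, 1 rose and 1 fell, although the median was 0.63. In both sets 6 were higher, beside 28.4% of all probe sets tested. Of these 6, Tnfaip6 read 495 and 536 on the wild-type arrays and Cemip read 435 on that of set 2. Hapln4 read 496 on the null and 243 on the wild-type array of set 1. These signals lay within the unspecific level, while Itih5, Lyve1 and Hmmr lay above it on all arrays. Tnfaip6, Cemip and Hapln4 had log2 ratios of 0.84, 0.91 and 0.81, so the median leans in part on them. Itih5, of the inter-alpha-trypsin inhibitor heavy chain family, some members of which bind hyaluronan, rose by 0.97 ± 0.10 (limma adjusted p = 3.26e-05) and passed on all 3 of its tested probe sets. Cemip2, a cell-surface protein with a part in hyaluronan turnover, fell by 0.40 ± 0.09 (limma adjusted p = 0.0125), with a second probe set at -0.19 that did not pass. The Cemip2 probe set that passed read 22523 and 10424 on the null arrays, against 27728 and 14749 on the wild-type arrays. Its genotypes thus overlapped across sets. Lyve1, the hyaluronan receptor of lymphatic vessels, had 0.72 (adjusted p = 0.0565), and Cd44, the main hyaluronan receptor, had -0.17 (adjusted p = 0.259). Of the list, 8 genes, Has2 and Has3 among them, lay within the unspecific level on all arrays.

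The partners of the proteoglycans are read against the 7.3% of all tested probe sets that passed. Of 14 proteins that bind syndecan tails or act next to them, 0 passed, with a median log2 ratio of -0.01. Sdcbp, which encodes syntenin, had 0.13 and Prkca had -0.10. Of 18 heparin-binding growth factors and receptors 1 rose and 1 fell (median 0.04). Hbegf, an ErbB ligand, rose by 1.12 ± 0.25 (limma adjusted p = 0.0142). Pdgfa fell by 0.56 ± 0.16 (limma adjusted p = 0.0482), and its second probe set had 0.25 without passing. The list of other core proteins that can carry heparan sulfate had 6 tested genes. Of these, Nrp1, neuropilin, rose by 0.65 ± 0.12 and Agrn, agrin, fell by 0.37 ± 0.09 (limma adjusted p = 0.0047 and 0.0221). This Nrp1 probe set read 9569 and 12283 on the null arrays, against 4920.5 and 9632 on the wild-type arrays, so the genotypes overlapped across sets, and its log2 ratio was 0.95 in set 1 and 0.35 in set 2. Of the other 3 tested Nrp1 probe sets 1 passed, at 0.50 (limma adjusted p = 0.0387), while the remaining ones had 0.61 and 0.23 without passing (limma adjusted p = 0.0906 and 0.582). Agrn read 9818 and 16311 on the null arrays, against 11832 and 22681 on the wild-type arrays. Its genotypes overlapped across sets too, with log2 ratios of -0.27 in set 1 and -0.47 in set 2. Gpc2 and Gpc5, the glypicans outside the 9 genes, lay within the unspecific level on all arrays.

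**Figure D4:**
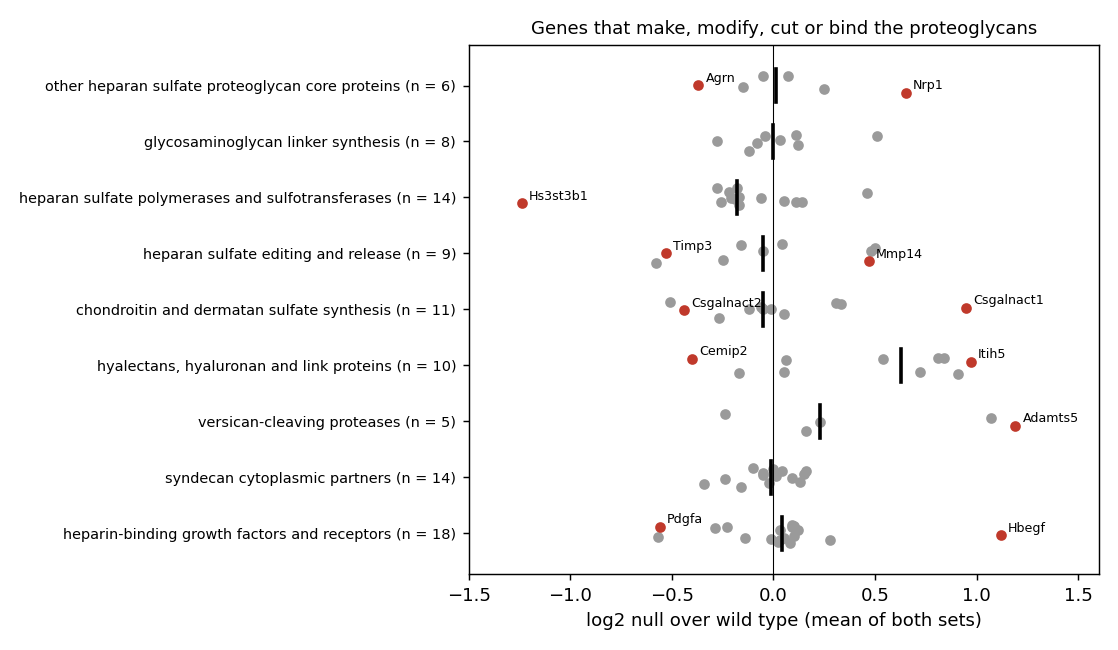
Log2 ratio of null over wild type for 1 probe set per gene (the brightest that was tested) in 9 lists of genes that make, modify, cut or bind the proteoglycans, red where the adjusted p passed 0.05 and grey otherwise, with a black bar at the list median. Medians lie between -0.18 for heparan sulfate synthesis and 0.63 for the hyaluronan list, and Hs3st3b1 is the lowest of the genes that passed.

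For the brightest tested probe set of each gene, the most alike probe set of another gene was sought over the 4 arrays, by Euclidean distance between log2 values centred on their own mean. For Sdc2 1448545_at it was Marchf6 1445928_at, which encodes a ubiquitin ligase, at a distance of 0.16, and no other of the 19765 compared was within 0.25. That probe set read 336 and 256 on the null arrays, against 1976 and 1212 on the wild-type arrays. Both null values lay within the unspecific level of 565, so this likeness rests in part on signals that cannot be told from that level. For Gpc1 it was 2010315B03Rik at 0.07, with 18 within 0.25, and for Sdc4 Rdx, which encodes radixin, at 0.06, with 50 within 0.25. For Gpc3 it was Vapb at 0.22, with 3 within 0.25. There the Vapb signal in the null pool of set 2, 473, and both set 2 signals of Gpc3 lay within the unspecific level. For the brightest probe sets of Sdc1, Sdc3, Gpc4, Gpc6 and Vcan it was Ssbp2, Ppfia4, Zfp944, Camta1 and 1110065P20Rik, at 0.01 to 0.03, but between 763 and 2871 probe sets were within 0.25 there, so the nearest one is hardly set apart. Of these, Camta1 read 545 and 538 on the null arrays, within the unspecific level.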

How the data were processed

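Expression was measured in 4 tumor pools, 2 per genotype. The deposited values are linear probe set intensities made by the authors with MAS5, per the submitters' processing notes. The 4 arrays share a mean of 2500.01 after trimming 2% at each end, so they were used as deposited. Detection calls and a genome build are not given in the sources used here. Of 45101 probe sets, 64 controls were left out. The annotation named 1 gene for 34945, several for 932 and none for 9160, and 34741 matched GRCm38.p6 names, with 0 symbols updated and 0 value columns unmapped.

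The fit was limma 3.58.1 (R 4.3.3) with set and genotype as terms, an intensity trend and Benjamini-Hochberg adjustment over 22519 probe sets. The pseudocount of 44 is the 10th percentile of all values. The fit has 1 residual and 13 prior degrees of freedom. The block follows the series' design text, which pairs the pools; the correlation of deviations from group means within a set was 0.605, equal for both sets by construction. An exact permutation of 2 against 2 cannot go below a two-sided p of 0.333. In simulated data of 22519 probe sets with 200 changed (3 runs), 31.8% of 1.5-fold, 64.7% of 2-fold and 86.4% of 3-fold changes were recovered, and 4.19% of calls (0.917% to 9.42% in single runs) were unchanged probe sets. The simulation took its spread, intensity trend and set effects from this fit and was fitted with the same terms. It therefore could not check the set term or the trend on which the calls rest. It also planted 200 changes, where the data gave 1645 calls.

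Members and lists were chosen with earlier results of these data known. Named were every probe set of the members, St6gal1, up to 4 called genes per pathway list and the most alike gene of each member. Genes named without passing were chosen after their values were seen. Alternatives were 2 other normalizations, other pseudocounts and filters, no set term, no trend, arrays left out and each set alone. Precision is limited by there being 4 arrays.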

Additional observations from a re-analysis of the deposited data

Results flagged for a closer look

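Gpc3 1450990_at and Sdc4 1417654_at had log2 ratios of null over wild type of at least 0.5 in size that pointed in opposite directions in the 2 sets. For Gpc3 the ratio was 0.55 in set 1 and -1.17 in set 2. For Sdc4 1417654_at it was -0.63 in set 1 and 0.52 in set 2. With 1 pool per genotype and set the difference between sets was not tested. Ratios of at least that size in opposite directions were seen for 201 of all tested probe sets, or 0.893%.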

How the results depend on the processing

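The 5 member calls and the total of 1645 called probe sets held within 1.5 times under quantile and cyclic loess normalization, both other pseudocounts, no filter (4 member calls, Sdc1 lost), the stricter filter and a filter on the mean log2 value, which was chosen after seeing the data. Without the replicate block, that is without the set term, 0 probe sets in all (1280 at an unadjusted p under 0.05) and 0 of the members were called, and without the intensity trend 0 (3486 unadjusted) and 0; the cause was not tested. With 1 array left out, the set term cannot be kept in a test, and the fit without it called 4, 8, 19 or 27 probe sets in all and between 0 and 1 of the members, the 1 being Sdc2 1448545_at without the wild-type array of set 2. The distance between the Sdc2 probe sets was 1.49 to 2.69 with 1 array left out, 2.55 in set 1 alone, 1.89 in set 2 alone, and 2.04 to 2.11 under the other settings. Over the lists, 51 genes were called with 1 probe set per gene and 70 probe sets when all were counted. No called member changed direction under any alternative run.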
